A study of Homo sapiens with 18 samples.

Results

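The G1 cyclin, CDK and CDK inhibitor genes described here are the kinase genes CDK6 and CDK4, the D-type cyclin genes CCND1, CCND2 and CCND3, and the inhibitor genes CDKN1A, CDKN1B, CDKN2A, CDKN2B and CDKN2C. They were taken by symbol from a table of ATAC-seq read counts, where they are 10 of 54425 genes. The table covers 18 libraries of the human embryonic kidney line HEK293T in 6 groups of 3 replicates that the study calls biological. In AF4-MLL cells an inducible AF4-MLL construct was present, in MLL-AF4 cells an inducible MLL-AF4 construct, and in co-expression cells MLL-AF4 was expressed constitutively while AF4-MLL was inducible. Each setting was sampled on day 3 and day 28, and doxycycline (1 µg/ml, 48 h) induced the inducible constructs. The constructs are Sleeping Beauty vectors carried by populations of transfected cells. In the co-expression cells AF4-MLL was brought in by a transient transfection and doxycycline was withdrawn on day 3. Untransfected or mock libraries were not analysed here, so each comparison is between settings or between days. MLL-AF4 and AF4-MLL are the reciprocal products of the t(4;11) translocation of acute leukaemia, and a kidney line is not the cell in which that leukaemia arises.

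D-type cyclins bind CDK4 or CDK6, and the complexes phosphorylate the retinoblastoma protein RB, which frees E2F factors to switch on genes of DNA synthesis. Proteins of the INK4 family, encoded by CDKN2A, CDKN2B and CDKN2C, bind the kinases and keep the cyclins off, while the CIP/KIP proteins encoded by CDKN1A and CDKN1B bind assembled cyclin-CDK complexes. CDK6 is a known target of MLL fusion proteins in leukaemia. HEK293T cells carry the SV40 large T antigen, which binds RB. The counts report how often the transposase cut DNA assigned to a gene, not how much the gene was transcribed.

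The 250 bases before 5 transcript starts are printed to show the sequence kind in which these genes begin, with the CG dinucleotides that mark a CpG island in capitals. CDK6 is shown as the kinase tied to MLL fusions, CDKN2A and CDKN2B because the comparisons with the smallest p-values among the inhibitors fell on them, and CDKN2C because it had the most reads of the 10. Both starts of CDKN2A are given, the first for the ARF transcript and the second for the p16 transcript. All are RefSeq sequences of GRCh38.p14, 5′ to 3′ on the gene's strand, from chr7:92836574-92836823 (minus), chr9:21995325-21995574 (minus), chr9:21974858-21975107 (minus), chr9:22009306-22009555 (minus) and chr1:50968456-50968705 (plus) in the order of the lines.
CDK6 start 1: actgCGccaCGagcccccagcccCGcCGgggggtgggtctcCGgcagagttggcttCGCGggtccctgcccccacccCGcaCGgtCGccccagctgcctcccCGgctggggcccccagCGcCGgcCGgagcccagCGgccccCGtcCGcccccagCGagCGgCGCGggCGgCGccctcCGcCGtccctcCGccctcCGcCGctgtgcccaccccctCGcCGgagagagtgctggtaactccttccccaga
CDKN2A start 1: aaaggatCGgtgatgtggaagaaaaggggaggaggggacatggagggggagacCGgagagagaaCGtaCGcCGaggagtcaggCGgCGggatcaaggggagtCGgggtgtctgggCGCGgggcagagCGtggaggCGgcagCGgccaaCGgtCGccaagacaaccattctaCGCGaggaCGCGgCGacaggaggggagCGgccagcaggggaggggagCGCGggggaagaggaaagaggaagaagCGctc
CDKN2A start 2: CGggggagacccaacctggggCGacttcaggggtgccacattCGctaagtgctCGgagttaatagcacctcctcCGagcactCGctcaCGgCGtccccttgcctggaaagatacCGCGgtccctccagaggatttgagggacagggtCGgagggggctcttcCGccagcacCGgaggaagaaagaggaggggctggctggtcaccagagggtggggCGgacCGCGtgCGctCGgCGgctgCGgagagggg
CDKN2B start 1: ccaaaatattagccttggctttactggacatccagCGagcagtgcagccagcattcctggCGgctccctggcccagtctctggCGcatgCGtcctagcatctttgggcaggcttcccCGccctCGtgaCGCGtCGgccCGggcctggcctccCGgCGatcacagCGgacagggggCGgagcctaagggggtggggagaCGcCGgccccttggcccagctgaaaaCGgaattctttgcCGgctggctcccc
CDKN2C start 2: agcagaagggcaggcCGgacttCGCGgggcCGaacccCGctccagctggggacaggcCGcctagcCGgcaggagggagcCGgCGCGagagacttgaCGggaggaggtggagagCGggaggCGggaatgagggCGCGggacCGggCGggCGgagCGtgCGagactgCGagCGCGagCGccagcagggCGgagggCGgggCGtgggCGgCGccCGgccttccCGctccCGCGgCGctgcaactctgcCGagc

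The printed window of CDK6 held 30 CG dinucleotides, more than 87.6% of the 35116 windows of that length in the table. The windows of CDKN2A held 24 and 20, that of CDKN2B 18 and the printed window of CDKN2C 35, which exceeded 94.2% of all windows. The other windows of CDKN2C held 7 and 10 CG and the other window of CDK6 held 23. RefSeq windows were found for 8 of the 10 genes, 14 windows in all, with 3 to 35 CG each, and 11 of the 14 lay above the median of 11. The GC box GGGCGG, searched on both strands, stood in 10 of the 14 windows and in 42.6% of all windows. CCAAT stood in 4 of the 14 and in 32% of all. The E2F core (TTCGCGC or TTGGCGC) and TATAAA stood in 0 of the 14, against 4.24% and 10.7% of all windows. A window counted once for a motif however many matches it held, overlapping ones included. These are letter matches in short windows and not bound sites. Across the genes tested, the median level was 15.1 CPM in the lowest of 4 bins of CG counts and 20.36, 21.02 and 19.78 CPM in the next ones. CPM values are counts scaled by the size of each library and by its TMM factor, which aligns the bulk of genes between libraries.

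Reads per library ranged from 442159 to 3539937, with 297567 to 1116385 outside the 37 mitochondrial genes. The mitochondrial share was 32.7% to 45.61% on day 3 and 63.56% to 68.46% on day 28, so it moved with the day in every setting. With the mitochondrial genes left out of the fit, no log2 difference of the 10 genes shifted by more than 0.007. Any other part of this share in the day comparisons was not tested. KMT2A is the gene of MLL, and its 3′ exons are part of the AF4-MLL construct and its 5′ exons part of the MLL-AF4 construct. It stood higher in AF4-MLL than in MLL-AF4 cells by a log2 difference of 1.39 on day 3 (edgeR quasi-likelihood test, adjusted p = 1.71e-10) and 1.06 on day 28 (adjusted p = 7.54e-10). On day 3 and day 28 its means were 96.55 and 93.99 CPM in AF4-MLL cells and 35.75 and 45.38 CPM in MLL-AF4 cells. Co-expression cells, which were given both constructs, lay between them at 52.8 and 67.38 CPM. Of 10 marker genes of HEK293T cells, 9 passed the filter on low counts. The sum of all 10 lay between 197.4 and 251.0 CPM in every library. Of 6 blood cell genes 5 passed, and all 6 summed to between 59.8 and 86.3 CPM. The sets differ in size, so the sums do not compare their levels. The median gene had 17.34 CPM in the HEK293T set, of which VIM alone had 75.0, and 14.07 CPM in the blood set. PTPRC, a leukocyte gene, averaged 13.1 CPM and CD3E, a T cell gene, had 0 to 7 reads, so genes of other lineages also drew reads in this assay.

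All 10 genes passed the filter and were among the 17660 genes tested. In reads per gene, which take no account of length, the means over the 18 libraries were 45.9 CPM for CDK6, 42.0 for CDK4, 21.0 for CCND1, 11.1 for CCND2 and 45.5 for CCND3. They were 20.2 CPM for CDKN1A, 43.3 for CDKN1B, 71.3 for CDKN2A, 56.6 for CDKN2B and 78.7 for CDKN2C. The median of the 13550 protein-coding genes tested was 18.5 CPM. Fewer reads than CDKN2C were found in 99.0% of those genes, fewer than CDKN2A in 98.4% and fewer than CDKN2B in 96.2%. For CCND2 the share was 22.7%.

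**Figure D1:**
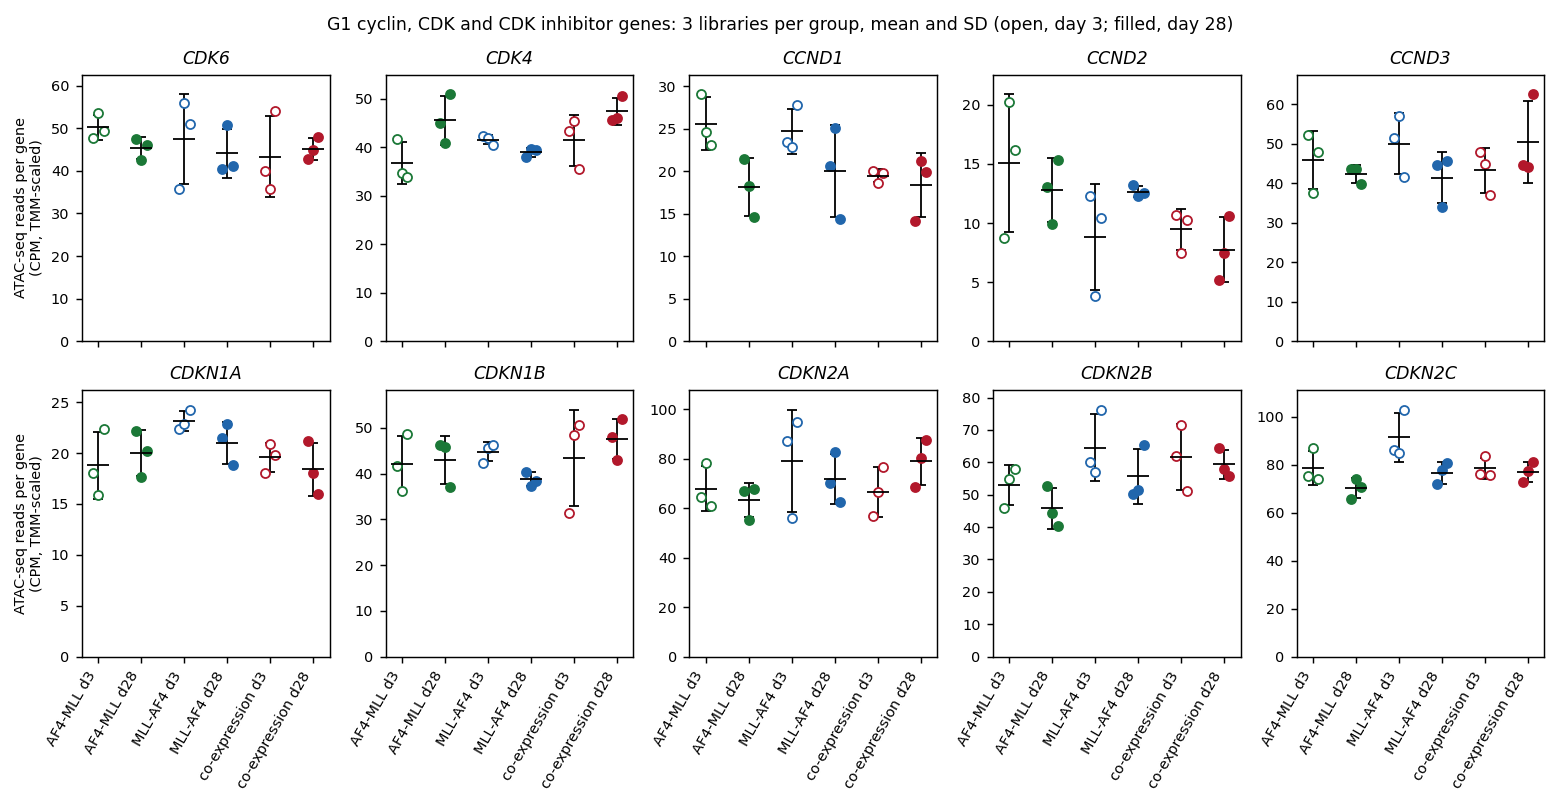
ATAC-seq reads of the 10 genes in CPM on a linear axis from 0, with 1 point per library, the mean of 3 libraries as a bar and the SD as whiskers, for the 3 settings on day 3 (open) and day 28 (filled). In every panel some groups overlap and some pairs of groups are apart. Examples of gaps are CCND2 between the co-expression and MLL-AF4 libraries of day 28 and CCND1 between the days in AF4-MLL cells.

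Between genes, levels were ordered per kilobase of RefSeq span. CDK4 had a median of 9.11 CPM per kb over libraries, CDKN1B 8.86, CDKN2B 8.81 and CDKN2C 5.51, and the ranges of neighbours among these 4 overlapped. CDKN2A at 2.47, CDKN1A at 1.89 and CCND1 at 1.57 CPM per kb followed, with overlapping neighbours. CCND3 (0.387), CCND2 (0.337) and CDK6 (0.202) were lowest. Only the steps from CDKN2C to CDKN2A and from CCND1 to CCND3 separated neighbouring ranges. CDK6 spans 231.7 kb and CDK4 4.6 kb, and over all coding genes the reads per gene did not follow span. In 5 equal bins of 2710 coding genes by span, the median level stayed at 17.93, 17.68, 18.89, 19.2 and 18.43 CPM while the median span went from 5.81 to 184.6 kb. The region counted per gene is not given in the sources used here, so neither scale can be called a density of open DNA.

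Over the 9 pairwise comparisons and 3 comparisons of the change over time, 0 of the 10 genes passed an adjusted p of 0.05 by edgeR, and DESeq2 and limma-voom also called 0. The 90 pairwise log2 differences ran from −0.85 to 0.58, and 78 of them were under 0.3 in size. For 84 of the 90 the 95% interval lay within −1 and 1, which leaves out a doubling and a halving of the reads. The 6 wider intervals were all of CCND2. The interval lay within −0.5 and 0.5 for 46 of the 90. An unadjusted p under 0.05 was reached by 5 of the 90, or 5.56%.

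Each count is set here beside the share of all genes that met the same rule. Between the days, 0 of 10 were called in AF4-MLL cells against 0.606% of all genes, 0 in MLL-AF4 cells against 2.87%, and 0 in co-expression cells against 0.606%. At an unadjusted p under 0.05 the counts were 1 of 10 against 9.29%, 0 against 15.8% and 0 against 9.51% in the same order. Between settings on day 3, 0 of 10 were called for co-expression against MLL-AF4, where 1.81% of all genes were, 0 for co-expression against AF4-MLL, where 1.28% were, and 0 for AF4-MLL against MLL-AF4, where 0.142% were. None of the 10 had an unadjusted p under 0.05 there, against 14.5%, 12.3% and 9.55% of all genes. On day 28 the calls were again 0 of 10 in each, against 1.17% for co-expression against MLL-AF4, 1.69% for co-expression against AF4-MLL and 0.0793% for AF4-MLL against MLL-AF4. The unadjusted counts were 1 of 10 against 11.8%, 3 of 10 against 12.7% and 0 of 10 against 8.26%.

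A selection modelled on the study's thresholds for reads, p and log2 difference was also applied to the present fit. It took genes with an unadjusted p under 0.05, an absolute log2 difference over 1 and a count over 2, read here as the mean over libraries. This selected 0 of the 10 genes in each of the 9 comparisons, as did a log2 threshold of 2. With the threshold of 1 it selected 1.14%, 2.54% and 1.19% of all genes between the days, given for AF4-MLL first, then MLL-AF4, then co-expression. On day 3 it took 2.79% for co-expression against MLL-AF4, 1.79% for co-expression against AF4-MLL and 1.51% for AF4-MLL against MLL-AF4. The same comparisons on day 28 gave 1.29%, 1.36% and 0.544%.

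Whether the change from day 3 to day 28 differed between settings was tested for each gene as an interaction. Called were 0 of 10 genes for co-expression against MLL-AF4 (0.232% of all genes), 0 for co-expression against AF4-MLL (0% of all genes) and 0 for AF4-MLL against MLL-AF4 (0.317%). An unadjusted p under 0.05 was also reached by 0 of the 10, against 9.73%, 5.05% and 9.75% of all genes. The smallest p was that of CCND3 for co-expression against MLL-AF4, with a log2 difference of 0.45 ± 0.24 (SE) and an adjusted p of 0.546.

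**Figure D2:**
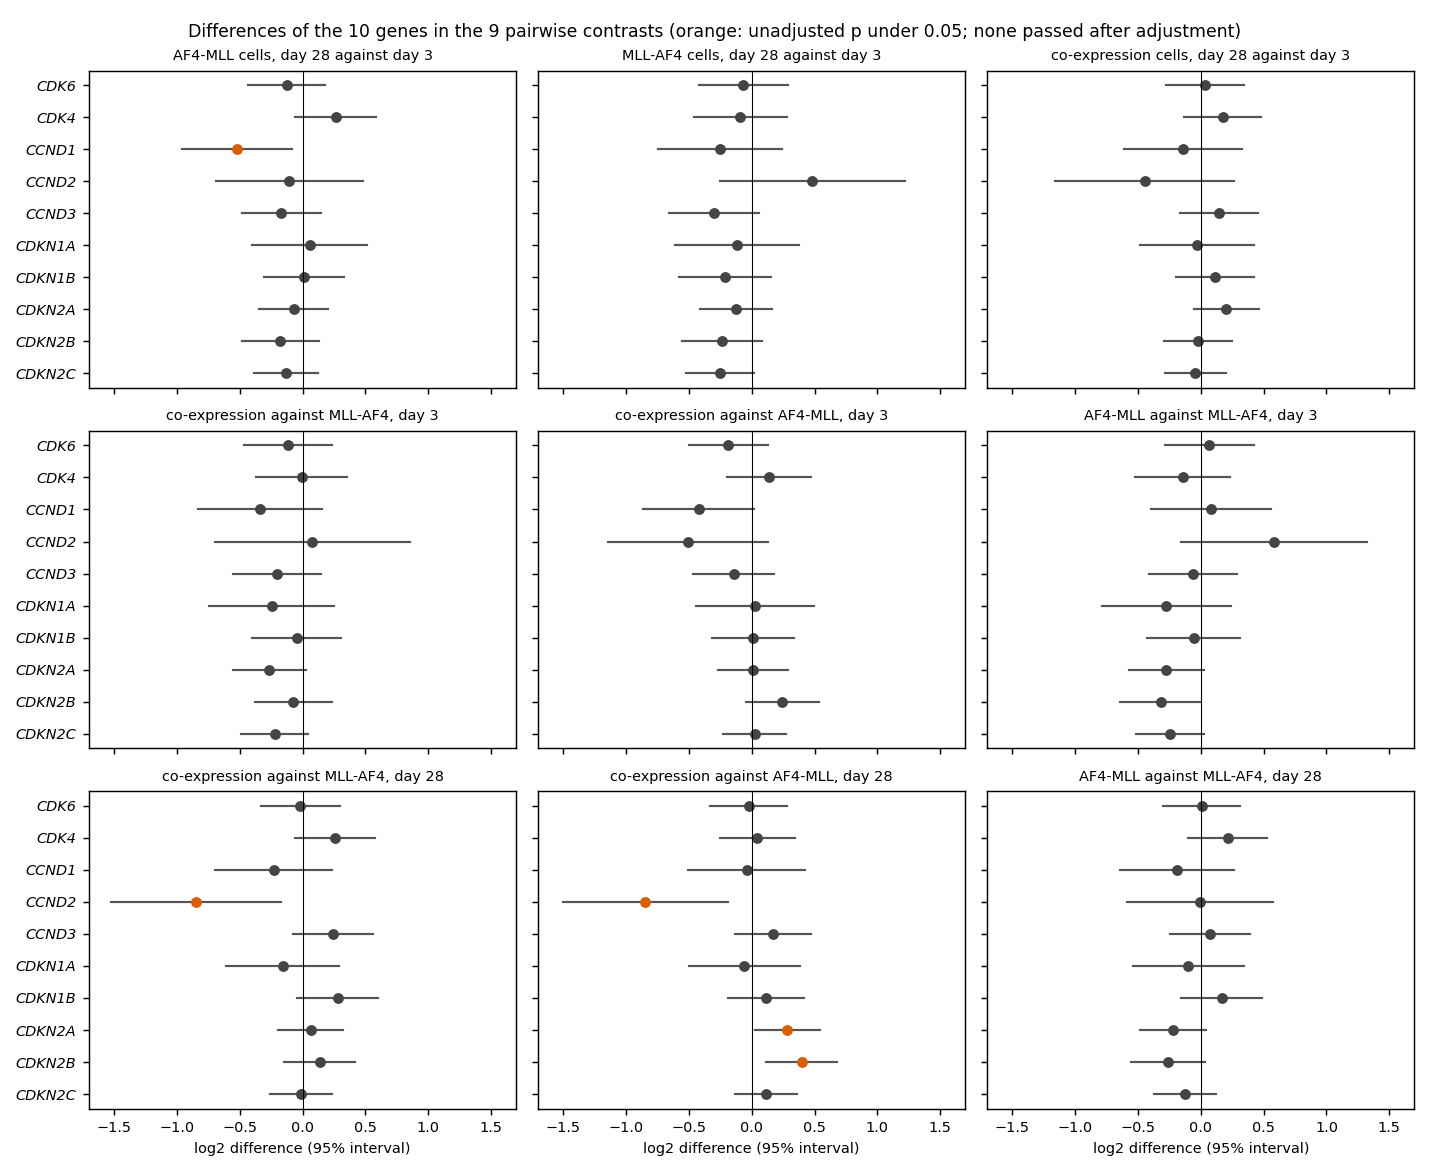
Log2 differences of the 10 genes with 95% intervals in the 9 pairwise comparisons, 1 panel each, with the vertical line at 0. The 5 orange points have an unadjusted p under 0.05, at CCND1 over time in AF4-MLL cells and at CCND2, CDKN2A and CDKN2B on day 28, and the intervals of CCND2 are the widest in every panel.

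CDK6, which pairs with D cyclins and is prominent in blood cells, spans chr7:92604921-92836573 (minus strand). Its AF4-MLL libraries held 47.7, 53.5 and 49.3 CPM on day 3 and 47.5, 42.5 and 46.0 CPM on day 28. Its MLL-AF4 libraries held 35.7, 55.8 and 50.9 CPM and then 40.4, 50.8 and 41.2 CPM. The co-expression libraries held 40.0, 35.8 and 54.0 CPM and then 42.8, 44.8 and 47.9 CPM. The lowest and the highest of the 18 were both MLL-AF4 libraries of day 3, and no setting stood apart. In AF4-MLL cells every day 28 library lay below every day 3 library, the nearest at 47.5 and 47.7 CPM. The share of all genes with such a gap between 3 and 3 libraries was not counted. This gap and those named below are therefore descriptions only. The group means lay between 43.3 ± 9.5 and 50.2 ± 3.0 CPM (SD, n = 3). Its 9 differences ran from −0.19 to 0.07, the intervals together reached from −0.50 to 0.42, and 8 of the 9 lay within −0.5 and 0.5. The smallest adjusted p was 0.708. CDK6 had 32 to 91 reads a library, and its spread within groups, a coefficient of variation of 14.4%, was near the 13.4% that counting alone gives at these depths. The highest correlations with CDK6 over the 18 libraries, among 6104 genes with a mean of at least 30 reads, were those of ZNF292 (Pearson r = 0.755), HECW2 (0.748) and MATN1 (0.747). They are the top of 6104 values over libraries that share their depth differences. How high such a maximum runs among unrelated genes was not tested. These values therefore do not show that the 3 genes vary with CDK6.

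CDK4, the partner kinase with the same substrates, spans chr12:57747727-57752310 (minus strand) and overlaps TSPAN31 and MIR6759, so that reads there may belong to any of them. Its libraries ran from 33.9 CPM in AF4-MLL cells of day 3 to 50.9 CPM in the same cells on day 28. The means of those groups were 36.8 ± 4.3 and 45.6 ± 5.1 CPM, a log2 difference of 0.26 ± 0.16 (SE) with adjusted p = 0.649. On day 28 the 3 co-expression libraries (45.6 to 50.5 CPM) lay above the 3 MLL-AF4 libraries (37.9 to 39.6 CPM), by 0.26 ± 0.16 with adjusted p = 0.562. TSPAN31 showed a log2 difference of −0.06 in the same comparison. The AF4-MLL libraries of day 28 (40.9 to 50.9 CPM) also lay above the MLL-AF4 libraries of that day, by 0.21. Between the days, the MLL-AF4 libraries of day 28 lay below those of day 3 (40.5 to 42.4 CPM), with a difference of −0.09. The co-expression libraries of day 28 lay just above those of day 3 (35.5 to 45.5 CPM), by 0.17.

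Of the cyclin genes, CCND1 gave the lowest unadjusted p of any day comparison. CCND1 encodes cyclin D1, a D cyclin widely used in epithelial cells, and spans chr11:69641156-69654474. In AF4-MLL cells its libraries held 29.0, 24.6 and 23.1 CPM on day 3 and 21.5, 18.2 and 14.7 CPM on day 28. Every day 28 library was below every day 3 library. The log2 difference was −0.52 ± 0.22 (SE), with a 95% interval of −0.96 to −0.08 and an adjusted p of 0.404. The mitochondrial share given above moved with the same libraries. In MLL-AF4 cells CCND1 went from 23.4, 22.8 and 27.7 CPM to 20.6, 25.1 and 14.3 CPM, a difference of −0.25 ± 0.25. In co-expression cells it went from 20, 18.6 and 19.8 CPM to 14.1, 21.2 and 19.9 CPM, a difference of −0.14 ± 0.24. The libraries of the 2 days overlapped in both settings. On day 3 every co-expression library also lay below every library of the other settings. Those differences were −0.34 against MLL-AF4 and −0.42 against AF4-MLL, and neither was called. Of the 20 nearest tested genes to CCND1, 0 lay below it in the AF4-MLL day comparison, and their median difference was 0.22. As that comparison was picked for its small p, the rank is a description only. CCND1 libraries had 15 to 53 reads. Without AF4-MLL day 3 replicate 1 the difference was −0.38 with adjusted p = 0.801.

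CCND2, which encodes cyclin D2 and spans chr12:4273762-4305353, was the most thinly covered of the 10, with 3 to 22 reads a library. Its AF4-MLL libraries of day 28 held 13.0, 9.94 and 15.4 CPM and its MLL-AF4 libraries 13.2, 12.3 and 12.5 CPM. The co-expression libraries of that day held 5.17, 7.47 and 10.6 CPM, below all MLL-AF4 libraries and overlapping those of AF4-MLL. The log2 difference was −0.85 ± 0.34 (SE) against MLL-AF4, with a 95% interval of −1.53 to −0.17 and an adjusted p of 0.248. Against AF4-MLL it was −0.85 ± 0.33, with an interval of −1.50 to −0.19 and an adjusted p of 0.203. The 2 comparisons share the co-expression libraries. Without co-expression day 28 replicate 1, the lowest of them, the differences were −0.56 and −0.55. Without co-expression day 28 replicate 3, the highest, they were −1.02 and −1.01, and without AF4-MLL day 28 replicate 2 the difference against AF4-MLL was −1.02, all with adjusted p over 0.05. On day 3 CCND2 held 8.77, 20.3 and 16.2 CPM in AF4-MLL cells, 12.3, 3.81 and 10.4 CPM in MLL-AF4 cells and 10.7, 7.46 and 10.3 CPM in co-expression cells, and all 3 settings overlapped. The spread of CCND2 within groups was 31.8%, against 27.9% from counting alone.

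CCND3, which encodes cyclin D3 and spans chr6:41934933-42050035 (minus strand), had 26 to 95 reads and 34.0 to 62.5 CPM. Its group means lay between 41.4 ± 6.4 CPM (MLL-AF4, day 28) and 50.4 ± 10.4 CPM (co-expression, day 28). The difference with the smallest p was the day comparison in MLL-AF4 cells, −0.30 ± 0.18 (SE) with adjusted p = 0.424, and the libraries of the days overlapped. On day 28 the co-expression libraries of CCND3 (44.2 to 62.5 CPM) lay above its AF4-MLL libraries (39.8 to 43.6 CPM), by 0.17. All 9 of its intervals lay within −1 and 1.

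The CIP/KIP genes showed no difference that passed the test in any setting. CDKN1A, an inhibitor gene switched on after DNA damage, spans chr6:36676463-36687332 (plus strand), overlaps the noncoding gene DINOL and held 15.9 to 24.3 CPM from 11 to 45 reads. Its largest difference was −0.27 ± 0.26 for AF4-MLL against MLL-AF4 on day 3 (adjusted p = 0.803), and its intervals together reached from −0.79 to 0.52. On day 3 its co-expression libraries (18 to 20.9 CPM) lay below its MLL-AF4 libraries (22.3 to 24.3 CPM), with a difference of −0.24. CDKN1B, whose protein restrains cyclin E and CDK2, spans chr12:12717368-12722369 (plus strand) and held 31.3 to 51.8 CPM. On day 28 its 3 co-expression libraries (43.0 to 51.8 CPM) lay above the 3 MLL-AF4 libraries (37.4 to 40.4 CPM), by 0.28 ± 0.16 with adjusted p = 0.517. In MLL-AF4 cells CDKN1B held 42.4 to 46.2 CPM on day 3 and 37.4 to 40.4 CPM on day 28, with a difference of −0.21 ± 0.19 and adjusted p = 0.633.

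The INK4 genes CDKN2A and CDKN2B lie side by side on chromosome 9 and gave the smallest p-values of the inhibitors, both for co-expression against AF4-MLL on day 28. CDKN2B spans chr9:22002903-22009313 and CDKN2A chr9:21967752-21995324, both on the minus strand, with similar coding sequence in part. The antisense gene CDKN2B-AS1 (chr9:21994791-22128142) covers the whole span of CDKN2B but only the upstream end of CDKN2A. CDKN2B held 52.7, 44.2 and 40.5 CPM in the AF4-MLL libraries of day 28 and 64.4, 57.9 and 55.8 CPM in the co-expression libraries. Every co-expression library was above every AF4-MLL library. The log2 difference was 0.40 ± 0.14 (SE), with a 95% interval of 0.12 to 0.68 and an adjusted p of 0.151. CDKN2A held 67.1, 55.2 and 67.7 CPM in the AF4-MLL libraries and 68.6, 80.3 and 87.7 CPM in the co-expression libraries, again without overlap though by a margin of about 1 CPM. Its difference was 0.28 ± 0.13, with an interval of 0.02 to 0.54 and an adjusted p of 0.32. Leaving out 1 library moved it to between 0.18 (without AF4-MLL day 28 replicate 2, adjusted p of 0.727) and 0.40 (without co-expression day 28 replicate 1, adjusted p of 0.252). For CDKN2B the same omissions gave 0.33 to 0.51. CDKN2B-AS1 had a difference of 0.41 ± 0.18 with adjusted p = 0.286 in that comparison, and since these reads carry no strand it may count some of the same reads.

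On the other comparisons of these genes the libraries overlapped. The MLL-AF4 libraries of day 28 held 50.3, 51.3 and 65.3 CPM of CDKN2B and 70.0, 82.6 and 62.7 CPM of CDKN2A. Co-expression differed from them by 0.14 ± 0.14 for CDKN2B (adjusted p = 0.781) and by 0.06 ± 0.13 for CDKN2A (adjusted p = 0.911). On day 3 CDKN2B held 46.0, 55.0 and 57.8 CPM in AF4-MLL cells, 60.3, 57.1 and 76.3 CPM in MLL-AF4 cells and 62.0, 71.6 and 51.2 CPM in co-expression cells. CDKN2A held 64.7, 78.1 and 60.9 CPM, 87.0, 55.8 and 94.8 CPM, and 56.7, 66.4 and 76.5 CPM in the same order. For both genes the settings overlapped on day 3. AF4-MLL had the lowest mean of CDKN2B on both days, at 52.9 ± 6.1 and 45.8 ± 6.3 CPM.

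The neighbourhood of both genes differed in the same direction. Around CDKN2B, 17 of the 20 nearest tested genes had more reads in the co-expression libraries of day 28 than in those of AF4-MLL, with a median of 0.24 and none called, and CDKN2B exceeded 15 of them. The 579 tested genes of chromosome 9 other than CDKN2A and CDKN2B had a median of −0.25 in that comparison, against 0.005 for all genes. In bands chosen after their values were seen, 20 of 23 genes within 5 Mb were higher (median 0.25). From 5 to 20 Mb away the medians were −0.07 towards the chromosome's start and 0.02 on the other side, while over 20 Mb away 42 of 435 were higher (median −0.34). On day 3 the same bands gave 15 of 23 (0.16), −0.01, 0.02 and 67 of 435 (−0.29).

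**Figure D3:**
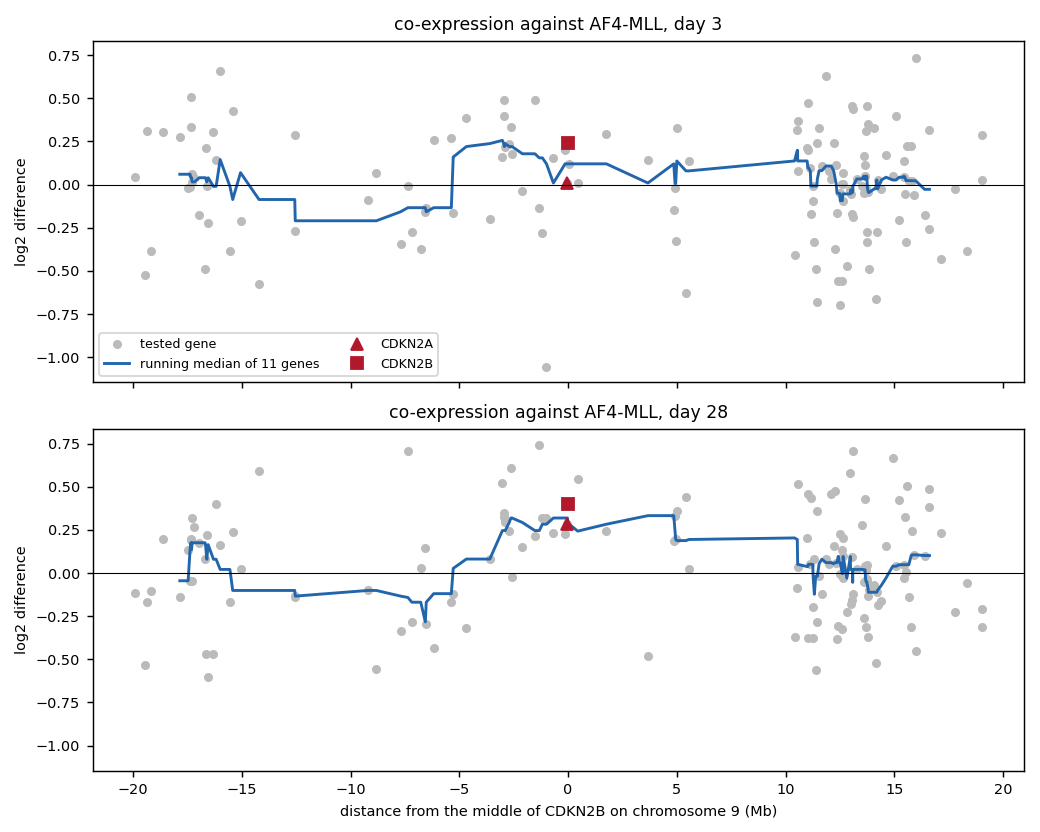
Log2 differences of co-expression against AF4-MLL for tested genes within 20 Mb of CDKN2B, by distance in Mb, on day 3 (top) and day 28 (bottom), with a running median of 11 genes as a line. On day 28 the line lies above 0 within about 5 Mb of CDKN2B, where 20 of 23 other genes were higher, and CDKN2A (triangle) and CDKN2B (square) lie close to it.

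The same was seen in the libraries when the reads of 22 genes within 5 Mb were summed, without CDKN2A, CDKN2B and CDKN2B-AS1. On day 28 the AF4-MLL libraries held 484.5, 489.5 and 530.8 CPM there, the MLL-AF4 libraries 611.4, 567.9 and 557.6 CPM and the co-expression libraries 581.0, 592.1 and 636.7 CPM. The AF4-MLL libraries were the lowest 3 of the 9. On day 3 they held 583.1, 539.5 and 490.1 CPM, against 640.5, 644.4 and 599.9 CPM in MLL-AF4 and 597.2, 577.2 and 578.6 CPM in co-expression libraries, and 1 AF4-MLL library overlapped the co-expression libraries. Over 20 Mb away, 435 genes summed to 9631.3 to 10258.9 CPM in the AF4-MLL libraries of both days, to 8349.0 to 8450.9 CPM in MLL-AF4 libraries and to 7958.1 to 8312.8 CPM in co-expression libraries. On day 28 the AF4-MLL libraries thus had fewer reads around the INK4 locus than the other libraries, and on both days more over the 435 genes far from it. The comparison of AF4-MLL with MLL-AF4, which uses the same AF4-MLL libraries, gave a median of −0.16 within 5 Mb on day 3 and −0.23 on day 28, with 5 of 23 genes higher on each day. CDKN2B differed there by −0.32 ± 0.16 (adjusted p = 0.533) and −0.26 ± 0.15 (adjusted p = 0.664). The part of these regional values in the differences of CDKN2A and CDKN2B was not tested. Read counts follow the number of DNA copies as well as openness, and these cannot be told apart in the present libraries. For CCND2, whose day 28 values are given above, 5 of its 20 nearest tested genes were higher for co-expression against MLL-AF4 (median −0.10) and 6 of 20 against AF4-MLL (median −0.15). The medians of chromosome 12 were 0.00 in both comparisons, and CCND2 lay below all 20 of its neighbours in each.

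CDKN2C, the INK4 gene of chromosome 1 (chr1:50960745-50974634, plus strand), was the most evenly covered of the 10, with 60 to 155 reads and a spread within groups of 7.45%, against 10.2% from counting. Its group means lay between 70.1 ± 4.1 CPM (AF4-MLL, day 28) and 91.3 ± 10.1 CPM (MLL-AF4, day 3). In MLL-AF4 cells all day 28 libraries (71.7 to 80.6 CPM) lay below all day 3 libraries (85.0 to 102.9 CPM), with a difference of −0.25 ± 0.14 (SE) and adjusted p = 0.358. The co-expression libraries of day 3 (75.8 to 83.5 CPM) also lay below those MLL-AF4 libraries of day 3, with a difference of −0.22. The largest change that the intervals of CDKN2C allowed in any of the 9 comparisons was −0.52 on the low side and 0.36 on the high side.

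As a group, the 10 genes lay slightly to one side in some comparisons. Between the days in MLL-AF4 cells 9 of 10 differences were negative, with a median of −0.17, and for co-expression against MLL-AF4 on day 3 also 9 of 10, with a median of −0.16. Of all 17660 genes, 8762 and 8876 were lower in these comparisons, with medians of 0.004 and −0.002. In the interaction of co-expression against MLL-AF4, 9 of 10 were positive (median 0.21), against 8893 of all genes (median 0.004). All of these comparisons share the MLL-AF4 libraries of day 3. In the interactions of co-expression against AF4-MLL and of AF4-MLL against MLL-AF4, 7 of 10 were positive (medians 0.13 and 0.09). In the other 7 pairwise comparisons 3 to 6 of the 10 were positive and the medians lay between −0.12 and 0.08.

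The wider G1/S machinery was followed in 28 further genes, among them cyclin E, A and H genes, CDK2 and CDK7, RB family, E2F and TFDP genes, SKP2 and MYC. All 28 were tested, and 0 were called in any of the 12 comparisons by edgeR, DESeq2 or limma-voom. An unadjusted p under 0.05 was reached in 26 of 336 tests, where 5.05% to 15.8% of all genes reached it, depending on the comparison, and 0% to 2.87% of all genes were called. By the smallest p, 3 are named, and none was called. CDC25A, the phosphatase that activates CDK2, held 16.2 to 17.4 CPM in the co-expression libraries of day 28 and 24.2 to 32.4 CPM in the MLL-AF4 libraries, without overlap, with a log2 difference of −0.72 ± 0.22 (SE) and adjusted p = 0.079. E2F2, an activating E2F factor, held 14.0 to 22.0 CPM in MLL-AF4 cells on day 3 and 8.06 to 12.4 CPM on day 28, a difference of −0.91 ± 0.32 with adjusted p = 0.0956. CDKN2D, the INK4 gene left out of the 10, held 22.3 to 28.9 CPM in MLL-AF4 cells on day 3 and 33.8 to 43.9 CPM on day 28, a difference of 0.61 ± 0.22 with adjusted p = 0.115. CDKN2D therefore lay on the other side of 0 from CDKN2A, CDKN2B and CDKN2C in that comparison, with none of the 4 passing the test.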

How the data were processed

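ATAC-seq libraries were made from HEK293T cells in 6 groups of 3 labelled replicates. The authors deposited 1 table of raw counts, whole numbers of reads for 54425 genes. The submitters' processing notes name bcl2fastq, Bowtie2, HTSeq and GRCh38. Their versions, the region counted per gene, and the handling of duplicates, multiply mapped reads and the insertion shift are not given in the sources used here, and 116 entries merge several Ensembl identifiers. The reads carry no strand information, so overlapping genes may share reads.

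A model with 6 group means was fitted to the 18 libraries with edgeR 4.0.16 (R 4.3.3), after TMM scaling and filterByExpr (at least 10 counts, and 15 in total). Genes were tested by quasi-likelihood F tests, and p-values were adjusted by Benjamini-Hochberg over all 17660 genes tested in each comparison. The biological coefficient of variation was 7.48%. CPM uses TMM-scaled library sizes with mitochondrial reads included and is given as mean ± SD (n = 3) or per library. Log2 differences are given with their standard error and 95% interval. The procedure was tested on simulated data. Only genes with a mean of at least 30 reads were moved there, by a log2 difference of 1. The simulation therefore does not show how smaller differences, or thinly covered genes such as CCND2, would be called. Alternatives used DESeq2 1.42.0, limma 3.58.1 (voom), other scalings and filters, the compared groups alone, a replicate block and each library left out. Total counts of 442159 to 3539937 gave a median of 21 reads per tested gene and library, and this count limits the precision. The labels call the replicates biological, and the p-values measure only the spread between these samples.

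The 10 genes and the list of 28 further genes were chosen with earlier results of these data known. All 10 were named. From the list, genes called in any comparison were to be named, or otherwise the 3 pairs of gene and comparison with the smallest p. Positions and promoter sequences come from RefSeq tables of GRCh38.p14, which matched 34285 symbols.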

Additional observations from a re-analysis of the deposited data

How the results depend on the processing

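The count of 0 called genes among the 10 held in all 12 comparisons under DESeq2 size factors, a loess offset, DESeq2's Wald test (7 of 120 adjusted p not given), limma-voom, no filter, a minimum count of 30 (without CCND2), omitted mitochondrial genes and the compared groups alone. It also held without each of the 18 libraries, with a smallest adjusted p of 0.0951, for CDKN2B without AF4-MLL day 28 replicate 1. Library size alone, with no TMM, was the exception. It called 10, 9 and 10 of the 10 genes and 28, 20 and 25 of the 28 between the days (AF4-MLL first, MLL-AF4 next, co-expression last). All-gene medians then stood at −1.06, −0.87 and −1.07, with 15485, 11457 and 15566 genes called in place of 107, 506 and 107, and the cause was not tested. Over the 12 comparisons, library size alone turned the sign of 25 of the 120 differences of the 10 genes. Both turned and called between the days were CDK4 (−0.77), CDKN1A (−0.99) and CDKN1B (−1.05) in AF4-MLL cells. In co-expression cells they were CDK6 (−1.03), CDK4 (−0.88), CCND3 (−0.89), CDKN1B (−0.96) and CDKN2A (−0.84). A loess offset turned 11 of the 120 signs and the fit without a filter 13, and none of these was called. A minimum count of 30 called 1 of 21 list genes for co-expression against MLL-AF4 on day 28, CDC25A (log2 difference −0.75, adjusted p = 0.0457), and the adjustment then ran over fewer genes. The selection modelled on the study selected 0 members at a log2 threshold of 2 and by DESeq2.

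A replicate block called 0 of the 10 genes, with a smallest adjusted p of 0.167. Same-numbered libraries did not deviate together: their 45 correlations over 6105 genes ran from −0.091 to 0.037, and 2 of 18 libraries correlated best with their own number. Over all genes DESeq2 called fewer than edgeR, with 71 against 319 for co-expression against MLL-AF4 on day 3 and 38 against 299 for co-expression against AF4-MLL on day 28, and the cause was not tested. Levels per kilobase of summed exon length were not run. With 3 to 22 reads per library, 6 of the 9 intervals of CCND2 reached past a log2 difference of 1.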
